A study of Mus musculus with 22 samples.

Results

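The genes described here are 10 genes of the Wnt signalling pathway in FE1 cells, an epithelial cell line from the lung of the MutaMouse. Wnt4, Wnt5a, Wnt7a and Wnt7b encode secreted ligands, Sfrp1, Sfrp2, Dkk2 and Dkk3 encode secreted proteins of the antagonist families, and Axin2 and Tcf7l2 act inside the cell. They are 10 of the 20018 genes named on the array, and were found as the 13 probes whose transcript accession belongs to these symbols. Each gene is given by its brightest probe, which is the only probe except for Axin2 with 2 and Tcf7l2 with 3. FE1 cells were exposed for 24 h to Mitsui7, a multi-walled carbon nanotube, at 12.5 µg/ml (D1, 6 arrays), 25 µg/ml (D2, 5 arrays) or 100 µg/ml (D3, 6 arrays), and the Control arrays hold cells at 0 µg/ml (5 arrays). All groups are of the same single cell line, with no genetic change between them. On each of the 22 two-colour arrays the cells' RNA carried Cy5 and a reference RNA pooled from mouse cell lines carried Cy3, so that a level below is the normalized log2 ratio of the cells to the reference, and a change is a difference between 2 such levels. The study's methods give 3 separate exposure experiments for the cells, without saying which arrays came from which. Arrays of a group can therefore share an experiment, and n below counts arrays. The labels do not tie arrays to separately grown cultures, so the tests measure the spread between these samples.

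Wnt ligands are lipid-bearing proteins that bind Frizzled receptors on the cell surface. With the co-receptors Lrp5 and Lrp6 they keep β-catenin from being broken down, and β-catenin then acts with DNA-binding factors of the TCF/LEF family, of which Tcf7l2 is a member, on genes such as Axin2, itself part of the complex that breaks β-catenin down. Wnt5a is best known for signalling without β-catenin, through receptors such as Ror2. Sfrp proteins bind the ligands outside the cell and Dkk2 binds the Lrp co-receptors. In the lung the pathway is known for its part in branching during development and in repair of the epithelium.

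Of the 10 genes, 6 have promoter windows in the RefSeq table for GRCm38.p6, which hold the 250 bases before and the 50 after a gene's start. Wnt5a, Wnt7b, Sfrp1 and Dkk3 are not in the table. The motif CTTTG, the core of the sequence that TCF/LEF factors recognise, was searched on both strands, and it stood in 3 of the 7 windows of these genes and in 53.9% of all 32851 windows. Those printed 5′ to 3′, with CTTTG or its reverse complement in capitals, are 1 of the 2 windows of Tcf7l2 and the windows of Dkk2, Axin2 and Fzd1. Tcf7l2 and Dkk2 rose above background in the cells, Axin2 is the classical target, and the receptor gene Fzd1 was lower at every dose. The printed Tcf7l2 window lies at chr19:55741560-55741859 on the plus strand, the Dkk2 window at chr3:132085042-132085341 on the plus strand, the Axin2 window at chr11:108920099-108920398 on the plus strand and the Fzd1 window at chr5:4758167-4758466 on the minus strand. The Axin2 window holds no match, the printed Tcf7l2 window and the Dkk2 window hold 1 each and the Fzd1 window holds 2. The other Tcf7l2 window also holds 1, so that 2 of the 3 windows with the motif are of Tcf7l2. Fzd1 is 1 of 7 other pathway genes lower at every dose, of which 4 have a window among those searched. Windows on 1 chromosome were left out of the search of the named genes, though not of the share over all windows. The motif stood in 1 of these 4 windows, that of Fzd1, and not in those of Rspo1, Fzd4 and Tle2.
Tcf7l2: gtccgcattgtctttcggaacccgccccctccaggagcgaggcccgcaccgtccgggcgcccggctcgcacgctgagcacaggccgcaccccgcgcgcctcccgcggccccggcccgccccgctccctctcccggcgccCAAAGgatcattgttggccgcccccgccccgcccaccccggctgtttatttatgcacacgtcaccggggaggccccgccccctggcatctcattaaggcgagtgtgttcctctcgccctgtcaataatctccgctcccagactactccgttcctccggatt
Dkk2: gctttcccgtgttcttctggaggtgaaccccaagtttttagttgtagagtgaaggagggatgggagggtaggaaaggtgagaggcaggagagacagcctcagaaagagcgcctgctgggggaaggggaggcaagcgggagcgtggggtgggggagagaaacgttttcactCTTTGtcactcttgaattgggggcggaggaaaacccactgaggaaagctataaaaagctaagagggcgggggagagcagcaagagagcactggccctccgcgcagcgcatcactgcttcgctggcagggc
Axin2: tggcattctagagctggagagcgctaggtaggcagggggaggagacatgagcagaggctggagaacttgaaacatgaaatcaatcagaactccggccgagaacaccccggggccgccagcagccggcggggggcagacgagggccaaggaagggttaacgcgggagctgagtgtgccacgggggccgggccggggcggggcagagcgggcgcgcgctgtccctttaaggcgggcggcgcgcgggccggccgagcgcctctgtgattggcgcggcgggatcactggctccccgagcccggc
Fzd1: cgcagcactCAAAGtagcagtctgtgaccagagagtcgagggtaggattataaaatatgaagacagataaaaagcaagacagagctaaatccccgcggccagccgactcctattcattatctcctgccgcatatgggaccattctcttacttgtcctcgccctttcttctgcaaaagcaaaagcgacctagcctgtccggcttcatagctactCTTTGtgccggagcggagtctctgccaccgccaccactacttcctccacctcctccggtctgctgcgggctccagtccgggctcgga

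The arrays detected between 23688 and 39139 of 55681 probes, a probe being detected where its Cy5 signal lay above the negative control spots. The arrays were run on 5 slides, 4 of which held every group, and slide is a term of the model. Arrays were correlated with the groups by slide-adjusted ratios of the 33475 probes detected on at least 4 arrays of a group. By this measure 16 arrays were closest to the group they belong to. D1 replicate 1 was closest to D2, D1 replicate 2 to Control, D2 replicate 1 to D3, D2 replicate 2 to D1, D2 replicate 5 to D3 and D3 replicate 6 to D2. Of 6 markers of epithelium, Krt7, Krt8, Krt18 and Krt19 were detected on at least 4 arrays of every group, whereas Cdh1 and Epcam, which also define epithelium, were not. All 8 markers of fibroblasts and smooth muscle were detected in every group.

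Wnt5a and Tcf7l2 were the 2 genes measurable throughout, with a Cy5 signal well above background, by the scanner software's mark, on all 22 arrays. Dkk2 reached that level on 13 arrays. Sfrp1 reached it on 8, of which 4 were outlier spots left out of the ratios, so that 4 of its 18 arrays with a value were well above background. Wnt4, Wnt7a, Wnt7b and Sfrp2 reached it on 2 arrays each, and Dkk3 and Axin2 on 0 of 22. The reference RNA on the same spots was well above background on all 22 arrays for Wnt4 and Dkk3 and on 21 for Sfrp2, so for these 3 genes the probes gave signal while the FE1 channel stayed near background.

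**Figure D1:**
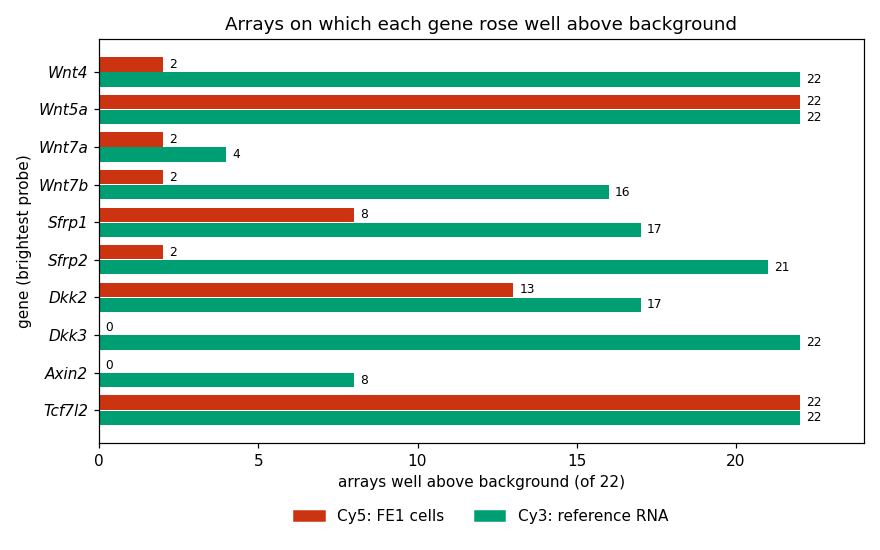
Number of the 22 arrays (x axis) on which the brightest probe of each gene (y axis) was well above background, in the FE1 channel (red) and in the reference channel (green), outlier spots included. Wnt5a and Tcf7l2 reached 22 arrays in both channels, whereas Dkk3 reached 22 in the reference and 0 in the FE1 channel.

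The question of the comparisons was which genes differ between cells exposed to Mitsui7 and control cells. To be called, a gene had to differ by 1.5-fold or more with an adjusted p of limma no higher than 0.05, and its probe had to be detected on 4 or more arrays of one of the groups. Wnt5a was called lower at each of the 3 doses and was the only one of the 10 genes called. It was 1 of 5 genes detected well enough to be tested in each comparison. Among all tested probes, 3.32% were called at D1, 5.69% at D2 and 7.58% at D3, with 1.96%, 2.97% and 4.24% called lower and 1.35%, 2.72% and 3.34% called higher. Wnt5a, Sfrp1, Dkk2 and Tcf7l2 were tested at every dose, and the fifth was Sfrp2 at D1, Wnt7b at D2 and Wnt4 at D3. Sfrp1 met the detection rule only by counting an outlier spot left out of the ratios, since 3 Control arrays with a value were detected. The median change of the 10 genes was -0.021 at D1, -0.058 at D2 and 0.022 at D3 on the log2 scale, beside 0.0059, 0.0058 and 0.011 over all tested probes. The 3 comparisons share the Control arrays.

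**Figure D2:**
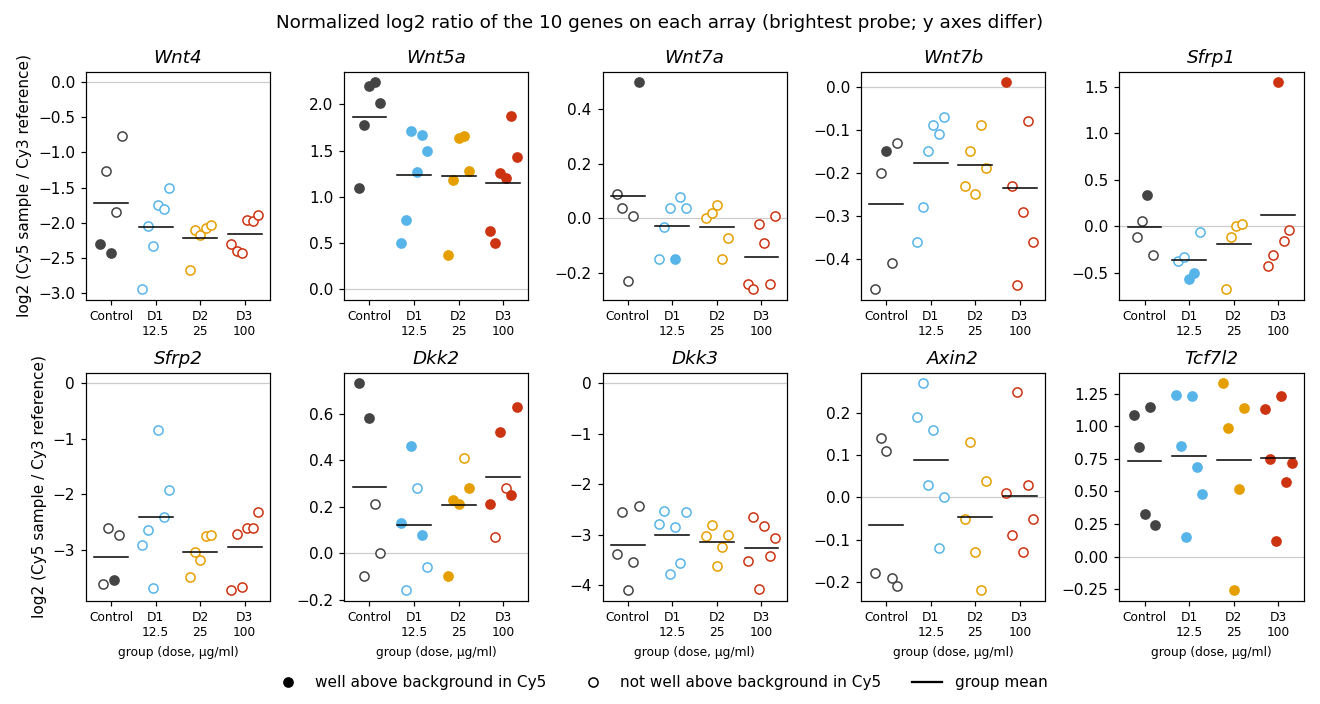
Normalized log2 ratio of FE1 cells to reference (y axis, a scale of its own in each panel) on every array, by group and dose (x axis), for the brightest probe of each gene. Filled points are arrays well above background in Cy5, open points are arrays that are not, and the line is the group mean. Wnt5a is filled on all 22 arrays, and its Control mean of 1.87 lies above the other group means, which lie between 1.15 and 1.23.

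Wnt5a had Control levels of 1.10, 1.78, 2.20, 2.24 and 2.02 in replicates 1 to 5, a mean of 1.87 ± 0.47 (SD, n = 5). At D1 the lowest level was 0.50, the median 1.38 and the highest 1.71, with a mean of 1.23 ± 0.50 (SD, n = 6). At D2 the levels were 0.37, 1.18, 1.64, 1.66 and 1.28, with a mean of 1.23 ± 0.53 (SD, n = 5). At D3 the lowest was 0.50, the median 1.23 and the highest 1.87, with a mean of 1.15 ± 0.51 (SD, n = 6). Before the slides are taken into account every exposed group overlaps Control, since the Control array at 1.10 lies below many exposed arrays. That array was on slide 1, where all 8 arrays lay between 0.37 and 1.78, while the other slides lay between 1.20 and 2.24.

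With slide in the model Wnt5a was 1.69-fold lower at D1, a change of -0.75 ± 0.14 (SE) on the log2 scale with an adjusted p of 0.00352. At D2 it was 1.56-fold lower, a change of -0.64 ± 0.15 (SE) with an adjusted p of 0.00992, and at D3 1.78-fold lower, a change of -0.84 ± 0.14 (SE) with an adjusted p of 0.000512. Once the fitted slide effects were removed, all 6 D1 arrays, 4 of 5 D2 arrays and all 6 D3 arrays lay below every Control array. Within each of the 4 slides that hold Control arrays the difference was negative at every dose. It was -0.82, -0.97, -0.50 and -0.53 on slides 1 to 4 at D1, -0.67, -0.57, -0.56 and -0.74 at D2, and -0.87, -1.04, -0.95 and -0.59 at D3. Leaving out D1 replicate 1 and D2 replicate 2 together, the changes were -0.73, -0.75 and -0.83.

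The Wnt5a call depends on the slide term: without it the changes were -0.64, -0.64 and -0.72, with adjusted p of 0.414, 0.413 and 0.199. The D2 call was also lost without Control replicate 2 (-0.54), D2 replicate 1 (-0.53) or D2 replicate 5 (-0.58), with median centring of each array (-0.58) and in a fit of the 2 groups alone (-0.64), whereas the calls at D1 and D3 passed without each single array. Between doses Wnt5a was not called, with D2 against D1 at 0.11 (95% interval -0.19 to 0.41), D3 against D1 at -0.08 (-0.36 to 0.20) and D3 against D2 at -0.19 (-0.49 to 0.10). The plain means fell in the order Control, D1, D2, D3 and the slide-adjusted ones in the order Control, D2, D1, D3, with no pair of doses apart beyond the spread.

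**Figure D3:**
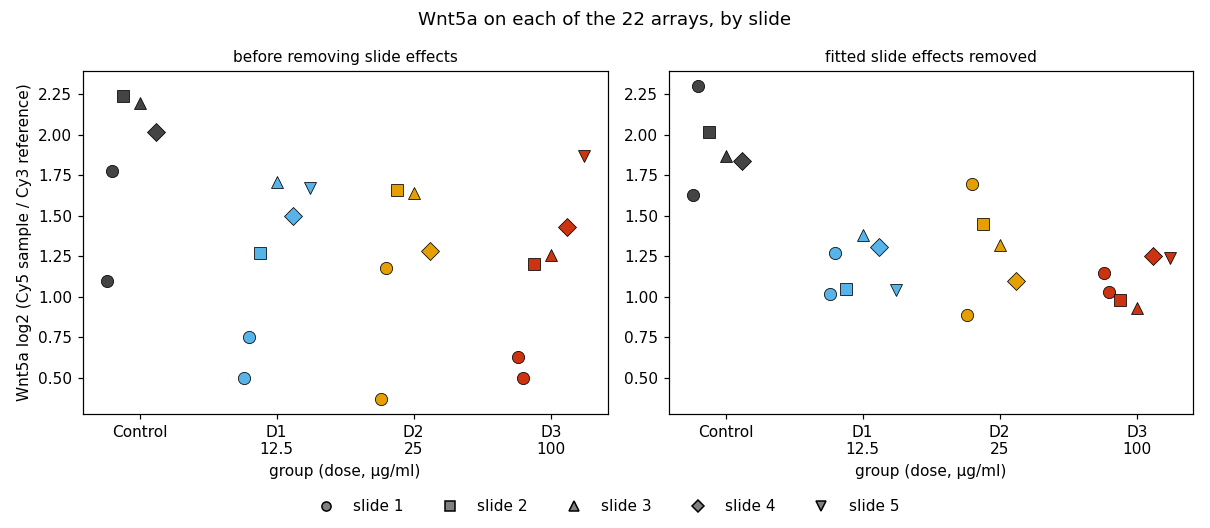
Wnt5a log2 ratio of FE1 cells to reference (y axis) on each array by group and dose (x axis), as normalized (left) and with the fitted slide effects removed (right). Marker shapes give the slide. The slide 1 arrays lie lowest in every group on the left, and on the right 1 exposed array, at D2, lies above the lowest Control array.

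Markers of several cell types were also called, Lamp3 higher and the others lower. Of the 8 markers of fibroblasts and smooth muscle, 5 were called lower at each dose, and the sum of their ratios of cells to reference lay at 11 to 13.9 in Control, 5.34 to 10.9 at D1, 5.23 to 6.86 at D2 and 4.08 to 6.79 at D3. All 8 were detected in every group, and none was at background. Not called were Vim (0.14, 0.39 and 0.14), Thy1 (0.10, -0.16 and -0.02) and Acta2 (-0.37, -0.75 and -0.70). Arrays without a value for Vim were summed without it. Of 4 markers of alveolar type I cells, Hopx was called lower at each dose (-1.33, -1.59 and -2.08), and their summed ratio lay at 5.75 to 8.44 in Control, 3.31 to 4.69 at D1, 2.93 to 5.11 at D2 and 2.59 to 3.44 at D3. That sum follows mainly Hopx, whose Control level was 2.33, beside 0.18 for Ager, -0.48 for Pdpn and -2.62 for Aqp5. Pdpn was detected in every group and not called, with changes the other way (0.22, 0.48 and 0.31). Ager and Aqp5 were lower and not called. Of the 6 epithelial markers Krt7 was called lower at D2 (-0.79) and D3 (-0.85). Of 6 markers of alveolar type II cells Lamp3 was called higher at D2 (0.75) and D3 (0.90). Abca3, detected on every array, was lower at each dose (-0.58, -0.37 and -0.63) and not called. Sftpc was higher (0.11, 0.75 and 0.61) and not called, while Sftpb, Sftpa1 and Nkx2-1 were not detected on 4 arrays of any group. The 2 leukocyte and 3 endothelial markers with a probe had 0 calls. Fewer cells of a type and less RNA per cell cannot be told apart in such samples. The part of these markers in the Wnt5a result was not tested.

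The 3 genes whose slide-adjusted levels followed those of Wnt5a most closely over the 22 arrays, among 9307 genes detected on all of them, were Ech1 with a Pearson r of 0.923, Cars2 with 0.917 and Six5 with 0.908. Ech1 encodes a member of the enoyl-CoA hydratase and isomerase family, Cars2 a mitochondrial cysteinyl-tRNA synthetase and Six5 a homeobox factor. These values are a description without a test, and the points share the dose groups. At D3 the changes of Ech1, Cars2 and Six5 were -0.82, -0.52 and -0.93 on the log2 scale.

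The other 3 ligands were near background. Wnt4 rose well above background on 2 of 5 arrays in Control and on 0 of the 17 exposed arrays, with Control levels of -2.31, -1.26, -2.44, -1.85 and -0.76. The D2 levels were -2.68, -2.10, -2.18, -2.07 and -2.04, those at D1 ran from -2.95 to -1.51 with a median of -1.93, and those at D3 from -2.44 to -1.89 with a median of -2.14. The groups overlap. The Control signal was set against a bound, the lowest signal that counts as above background or the exposed arrays' own signal where higher. At every dose the exposed arrays' own mean equalled the bound, so the folds are ratios of mean signals and set no minimum. By mean signal Wnt4 was 1.02-fold higher in Control than at D1, 1.14-fold than at D2 and 1.1-fold than at D3. Wnt4 was tested at D3 only, by limma on the log2 ratio to the reference and not on these signals. The mean ratio was -1.72 in Control and -2.16 at D3, with an adjusted p of limma of 0.202.

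Wnt7a was well above background on 1 Control and 1 D1 array and Wnt7b on 1 Control and 1 D3 array. The Wnt7a Control array was replicate 5, with a Cy5 signal of 311 units where the other 4 Control arrays had 68 to 76, and its Cy3 signal was 274 where they had 23 to 43. No fold is given for Wnt7a, since a higher Control signal would rest on that 1 array, which was bright in both channels. The levels of Wnt7a lay between -0.26 and 0.50 and those of Wnt7b between -0.47 and 0.01 over the 22 arrays, with every group overlapping the others. No fold is given for Wnt7b, whose Control signal did not exceed the bound.

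Among the antagonists Dkk2 was measurable in the most arrays, being well above background on 2 of 5 Control, 3 of 6 D1, 4 of 5 D2 and 4 of 6 D3 arrays. Its Control levels were 0.73, -0.10, 0.58, 0.21 and 0.00, a mean of 0.28 ± 0.36 (SD, n = 5). The D2 levels were -0.10, 0.23, 0.21, 0.41 and 0.28, with a mean of 0.21 ± 0.19 (SD, n = 5). At D1 they ran from -0.16 over a median of 0.11 to 0.46 and at D3 from 0.07 over 0.26 to 0.63. The 4 groups overlap. The change was -0.15 at D1 (95% interval -0.44 to 0.15), -0.08 at D2 (-0.38 to 0.23) and 0.06 at D3 (-0.24 to 0.35), none of them called, and the within-slide differences held both signs at every dose.

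Sfrp1 was read on 18 arrays, since all 4 spots on slide 2 were marked as outliers by the scanner software, with Cy5 signals of 323 to 1228 units and Cy3 signals of 1282 to 1641 units. On the other slides its Control levels were -0.12, 0.06, 0.34 and -0.31 and its D2 levels -0.68, -0.12, 0.00 and 0.02. The D1 levels ran from -0.57 over -0.38 to -0.06, and the D3 levels from -0.43 over -0.16 to 1.55. The D3 array at 1.55, replicate 3, lies far above the other 4 D3 arrays, of which the highest was at -0.04, while D1 lies mostly below Control. The changes were -0.31 at D1 (95% interval -0.84 to 0.22), -0.19 at D2 (-0.73 to 0.35) and 0.18 at D3 (-0.35 to 0.71). None was called, and without D3 replicate 3 the D3 change was -0.19. Of the arrays behind these changes 1 of 4 in Control, 2 of 5 at D1, 0 of 4 at D2 and 1 of 5 at D3 were well above background, so the values of Sfrp1 lie mostly near background. The change at D2 was -0.85 by the scanner software's log ratio (adjusted p of limma 0.473) and -0.41 by the processed ratios of the authors (0.0694), and that at D3 was 0.61 without slide 1 (0.672) and -0.36 by the processed ratios (0.0868).

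Sfrp2 and Dkk3 were low in FE1 cells beside the reference. Sfrp2 levels lay between -3.73 and -0.84, and 20 of the 21 arrays with a value lay at -1.92 or lower. The exception was D1 replicate 4 at -0.84, where the Cy3 signal was 91 units against 269 to 950 on the other such arrays. Sfrp2 was well above background on 2 Control arrays, 1 of them an outlier spot left out, and on 0 exposed arrays, whereas its mean ratio was -3.13 in Control and -2.40 at D1. No fold is given for Sfrp2. Dkk3 levels lay between -4.10 and -2.42 in every group, with Cy5 signals of 66 to 96 units and Cy3 signals of 488 to 1111 units. Its means were -3.20 ± 0.70 (SD, n = 5) in Control, -3.01 ± 0.53 (SD, n = 6) at D1, -3.13 ± 0.31 (SD, n = 5) at D2 and -3.25 ± 0.52 (SD, n = 6) at D3, and no fold is given because its FE1 signal was not well above background in any group.

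Axin2, the feedback gene most often read as a sign of β-catenin signalling, was not well above background on any of the 22 arrays by either of its probes. The Cy5 signal of its brighter probe lay between 66.5 and 94 units and its levels between -0.22 and 0.27, with the groups overlapping. The reference was well above background on 8 arrays for this probe and on 0 for the other. A change in Axin2 was therefore not measurable on these arrays.

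Tcf7l2, which encodes the DNA-binding partner of β-catenin also known as TCF4, was well above background on all 22 arrays. Its Control levels were 1.09, 0.84, 0.33, 1.15 and 0.24, a mean of 0.73 ± 0.42 (SD, n = 5). The D2 levels were 1.33, 0.99, -0.26, 0.52 and 1.14, with a mean of 0.74 ± 0.64 (SD, n = 5). The D1 levels ran from 0.15 over 0.77 to 1.24 and the D3 levels from 0.12 over 0.74 to 1.23. The groups overlap throughout, and the arrays of slide 3 are the lowest of D1, D2 and D3. The change was 0.07 at D1 (95% interval -0.28 to 0.42), 0.01 at D2 (-0.35 to 0.37) and 0.05 at D3 (-0.30 to 0.40), with adjusted p of 0.913, 0.989 and 0.945. The intervals of this probe leave out a 1.5-fold change in either direction. A second probe, well above background on all 22 arrays with 1 outlier spot left out, gave 0.04 (-0.37 to 0.44), 0.10 (-0.32 to 0.51) and 0.21 (-0.19 to 0.62), of which the D3 interval includes a 1.5-fold rise. The remaining probe was well above background on 5 arrays.

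Between doses 0 of the 10 genes were called in each of the 3 comparisons by limma, where 5 were tested. At an unadjusted p of limma under 0.05 there was 1 gene in D2 against D1 and in D3 against D1, and 0 in D3 against D2. It was Sfrp2 in both, which was well above background on 0 exposed arrays. An ordinary linear model also called 0. Against Control the same count over the 10 genes, tested or not, was 1 at D1, 2 at D2 and 3 at D3. These were Wnt5a at each dose, Wnt4 at D2 and D3 and Wnt7a at D3, the last 2 genes being near background. Among all tested probes 0% were called in D2 against D1 and in D3 against D2, and 0.26% in D3 against D1, of which 0.0423% were higher and 0.218% lower.

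**Figure D4:**
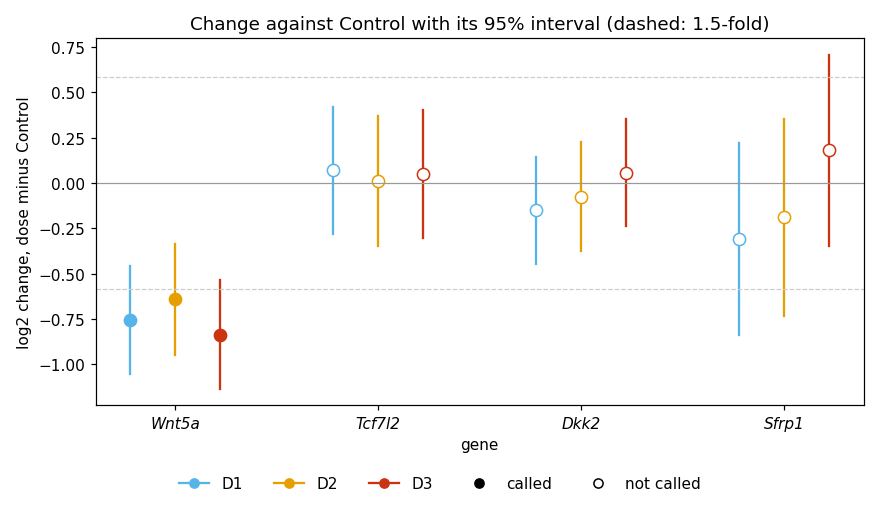
Log2 change against Control (y axis) at each dose for the 4 genes well above background on 8 or more arrays, 4 of them outlier spots for Sfrp1 (x axis), with the 95% interval of limma. Filled points are called and open points are not, and dashed lines mark 1.5-fold. Wnt5a lies at -0.75, -0.64 and -0.84, and the intervals of Tcf7l2, Dkk2 and Sfrp1 include 0.

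The rest of the pathway was read from a list of 87 other genes, all of which have a probe. Of these, 63 were tested at D1, 62 at D2 and 68 at D3. At D1 7 were called, all lower (11.1%), at D2 11, of which 3 were higher and 8 lower (17.7%), and at D3 14, of which 4 were higher and 10 lower (20.6%), beside the 3.32%, 5.69% and 7.58% of all tested probes. The median change of the tested genes was -0.06, -0.064 and -0.021. The list is read at 1 bright probe a gene and the background over all probes, so these shares describe the list only. The 7 genes lower at every dose were Fzd1, Fzd4, Rspo1, Rspo3, Tle2, Apcdd1 and Celsr1, and 0 genes were higher at every dose. Of the 8 fibroblast and smooth muscle markers given above 5 were lower at the same doses, as was Hopx, and the part of the markers in these counts was not tested.

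Fzd1 and Fzd4, receptors of the Frizzled family, were lower at every dose. Fzd1 lay between 0.34 and 0.96 in Control and between -0.93 and -0.04 in the 17 exposed arrays, with no overlap, and its changes were -0.94 ± 0.14 (SE) at D1, -1.33 ± 0.14 at D2 and -1.33 ± 0.14 at D3, with adjusted p of 0.000352, 5.72e-06 and 1.95e-06. Within slides the differences of Fzd1 lay between -1.85 and -0.74. Fzd4 changed by -1.12, -1.19 and -1.14, and its D1 call was lost without slide 1 (-1.06), with the scanner software's ratio (-0.75) and with the processed ratios of the authors (-0.91), its D2 call without slide 1 (-1.16). Fzd8 was called lower at D3 alone (-1.01), and not called at D1 (lowest 0.89, median 1.68, highest 2.76, against 1.81 to 2.72 in Control), where it was called without D1 replicate 2 (-0.91) or D2 replicate 1 (-0.72).

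Fzd3, Fzd9 and Ror2 were higher at D2 and D3. Ror2 encodes a receptor of Wnt5a, and its level rose from 0.10 ± 0.32 (SD, n = 5) in Control to 0.88 ± 0.43 (SD, n = 5) at D2 and 0.73 ± 0.44 (SD, n = 6) at D3, changes of 0.78 and 0.67 with adjusted p of 0.0263 and 0.0422. Leaving out any of 6 single arrays at D2 or 9 at D3 ended the Ror2 call. Fzd9 rose by 0.77 and 0.94, with 2 of 5 Control arrays well above background against 4 of 5 D2 and all 6 D3 arrays. Both Fzd9 calls were lost where detection was required in both groups, and that at D2 also with median centring (0.57), by the processed ratios of the authors (0.64) and without slide 1 (0.81), while the scanner software's ratio gave 1.86 and 2.04. Fzd3 rose by 0.62 and 0.65, and its calls were lost in 9 of 41 alternative settings at D2 and in 7 at D3. Among them were fits without Control replicate 3 (0.50 and 0.52), without D2 replicate 1 (0.51) and without D3 replicate 3 (0.55). Requiring detection in both groups also ended both calls, since Fzd3 was detected on 3 Control arrays. Of the 15 receptor genes 13 were tested, and 2, 5 and 6 of them were called at the 3 doses.

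The R-spondins Rspo1 and Rspo3, secreted proteins that strengthen Wnt signalling by sparing the receptors from turnover, were called lower at every dose, and Rspo3 had the largest fall of the called genes of the list at each of them. Rspo3 lay between 4.31 and 5.34 in Control and fell to between 2.40 and 3.75 at D1, 2.64 and 3.86 at D2 and 2.39 and 2.95 at D3, without overlap. Its changes were -1.77 ± 0.20 (SE), -1.70 ± 0.20 and -2.17 ± 0.20, up to 4.51-fold lower, with adjusted p of 1.69e-05, 1.98e-05 and 3.67e-07. Rspo1 changed by -1.52, -1.16 and -1.72, and its Control levels of 4.06 to 6.14 overlap those at each dose. By the ratio of the scanner software the changes of Rspo1 were -0.16, -0.37 and -0.52 without a call, and its Cy3 signal was well above background on 1 of 6 D1, 1 of 5 D2 and 2 of 6 D3 arrays. Leaving out any of 7 single arrays also ended its D2 call.

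**Figure D5:**
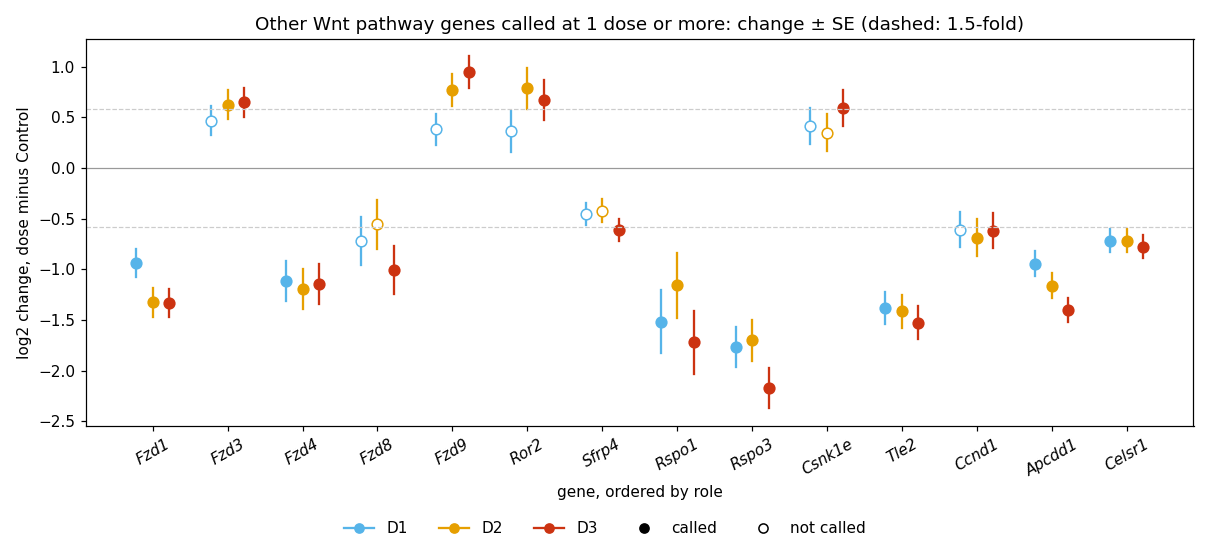
Log2 change against Control (y axis, ± SE of limma) at each dose for the 14 other genes of the pathway called at 1 dose or more (x axis, ordered by role). Filled points are called, open points are not, and dashed lines mark 1.5-fold. Fzd1, Fzd4, Rspo1, Rspo3, Tle2, Apcdd1 and Celsr1 are filled below the line at all 3 doses, with Rspo3 at D3 lowest at -2.17.

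Tle2, a co-repressor that TCF/LEF factors recruit, was lower at every dose, with changes of -1.38 ± 0.16 (SE), -1.42 ± 0.17 and -1.53 ± 0.16. Its Control levels of -1.56 to -0.78 lay above all 17 exposed arrays, of which the highest was at -2.08. Apcdd1, a membrane protein that inhibits Wnt signalling and is itself a target of the pathway, changed by -0.94 ± 0.12 (SE), -1.16 ± 0.12 and -1.40 ± 0.12, with Control levels of 1.48 to 2.01 above all exposed arrays. Celsr1, a cadherin of planar cell polarity, changed by -0.72, -0.72 and -0.78, and its D1 and D2 calls were lost without slide 1 (-0.65 and -0.70) and with median centring (-0.79 and -0.63). Fzd1, Rspo3, Tle2 and Apcdd1 kept their call at all 3 doses in each of the 41 alternative settings that keep the 1.5-fold threshold.

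The remaining called genes passed narrowly. Ccnd1, the gene of cyclin D1, was called lower at D2 (-0.69) and D3 (-0.62), and leaving out any of 7 and 8 single arrays ended those calls, while 2 arrays gave a call at D1 when left out. Sfrp4, an antagonist of the family of Sfrp1, was called lower at D3 alone (-0.61), a call that ended without any of 4 single arrays. Csnk1e, a kinase of the signal relay, was called higher at D3 alone (0.59), and 15 of the 22 arrays ended that call when left out, whereas its other probe was called at D2 (0.62) and D3 (0.69). Of the 15 other ligands, 8, 7 and 11 were tested and 0 were called at any dose, with 1, 0 and 2 at an unadjusted p under 0.05. None of the 12 genes of signal relay and the destruction complex other than Csnk1e was called at any dose.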

How the data were processed

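RNA of FE1 cells (Cy5) and Universal Mouse Reference RNA (Cy3) was hybridised to 22 Agilent arrays, with no dye swap. The deposited scanner files, one array each, hold median spot intensity and local background intensity in both channels, the software's marks and its log10 ratio of Cy5 to Cy3. Per the file headers they came from Feature Extraction 10.7.3.1, a G2505C scanner at 3 µm and a grid annotated on mm9, whereas the methods name another version, scanner and resolution. The deposited log2 ratios of the authors, 1 value per probe, were used as an alternative only, and how they were made is not given in the sources used here.

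After the study's methods, median intensities were used without background subtraction, and probes with several spots were reduced to the median. The 3671 control spots and the spots marked as outliers were left out before loess normalization within each array (limma 3.58.1, R 4.3.3). A probe was detected where Cy5 lay over a limit set by the 308 negative control spots, their mean and 3 SDs after trimming 5% at each end. Transcript accessions gave a symbol to 26413 of 55681 probes (47.4%) through RefSeq, 20018 genes in all. limma (lmFit, eBayes) was fitted to all 22 arrays with group and slide, with Benjamini-Hochberg adjustment over all 55681 probes. It takes the place of the shrinkage test of the methods, which was not run here. Calls required an adjusted p up to 0.05, a change of 1.5-fold and detection on 4 arrays of one group. Of the 10 genes a change is given for those well above background on 8 or more arrays, outlier spots counted. For the others the brighter group is set against a bound, from loess- and Aquantile-normalized single-channel values, which stay open to dye bias without swaps. A fold is given where the rule for it yields more than 1-fold, the ratios run the same way and it does not rest on 1 array. Where the bound is the exposed arrays' own signal, as for Wnt4, the fold is a ratio of mean signals and no minimum.

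Arrays of different groups with the same replicate number were alike: in 31 such pairs, deviations from the group means correlated at 0.178 to 0.817. The other 150 pairs had a median of -0.146 and a highest value of 0.55. The numbers follow the slides closely and slide effects were not removed here, so the check cannot tell paired samples from a shared slide. No array was a copy of another, the highest share of spots with equal Cy5 signal being 2.36%.

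On simulated data with the size of D3 against Control (55681 probes, 200 of them changed, at 2 sizes in equal shares), 94% of changes of 1 and 99% of changes of 2 on the log2 scale were recovered, with 2 false calls. The simulated noise was independent between arrays and D1 and D2 held no change, so these rates do not cover arrays that are alike by replicate number. The number of arrays limits the precision. The named genes were the 10 genes, the genes of the 87-gene list called at any dose and, for each called gene of the 10, the 3 genes with the most similar levels. These genes and lists were chosen with earlier results of these data known. Alternatives covered background correction, normalization, the deposited ratios, outlier spots, the slide term, the replicate block, the test, the filters, the fold threshold, the probes of a gene, and leaving out slides and arrays. The background correction by normexp used median spot intensities, since the files hold no means. Figures were drawn with matplotlib 3.10.9.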

Additional observations from a re-analysis of the deposited data

Results flagged for a closer look

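In 40 sets of arrays, 1 per gene and group, 2 held an array whose distance to its nearest neighbour took up more of the group's range than Dixon's 95% limit allows. Chance flags about 1 set in 20. Wnt4 on D2 replicate 1 was at a log2 ratio of -2.68, while the other 4 D2 arrays lay between -2.18 and -2.04, and its Cy5 signal was not well above background on any of the 5 arrays. Sfrp1 on D3 replicate 3 was at 1.55, while the other 4 D3 arrays with a value lay between -0.43 and -0.04. The Sfrp1 spot was well above background in both channels on that array, with 213 units in Cy5 and 46 units in Cy3.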

How the results depend on the processing

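Wnt5a was called at all 3 doses in every setting except those named here. The number of the 10 genes called fell from 1 to 0 at D1, D2 and D3 without the slide term and at a 2-fold threshold, and to 0 at D2 with median centring and with only the 2 groups compared. Leaving out 1 array gave 1 gene at D1 and D3 and between 0 and 1 at D2, with 0 without Control replicate 2, D2 replicate 1 or D2 replicate 5. By the scanner software's own log ratio it was 2 at D3, Wnt4 being the other (-1.49, adjusted p = 0.04 in limma). Between doses the count stayed at 0 in all 43 settings. With the replicate block in place of slide Wnt5a changed by -0.69, -0.64 and -0.78, and the block changed no count of the 10 genes. The Wnt pathway list had 4, 6 and 7 calls at 2-fold at the 3 doses, and at D2 5 with median centring, 6 without slide 1 and 7 without slide 3. Leaving out 1 array gave 7 to 8 at D1, 7 to 11 at D2 and 10 to 16 at D3, the lowest at D2 being without Control replicate 3. With the block the list had 8, 12 and 16 calls. Over all probes the calls were 441, 625 and 1314 with median centring, 673 at D1 with only the 2 groups compared and 1126 at D2 without the slide term, against 1017, 1692 and 2448. Aquantile between arrays leaves the ratios as they are. The cause of these differences was not tested.

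Signs turned only in changes that were not called. Wnt5a in D2 against D1 was 0.00 without the slide term and -0.03 with D1 replicate 1 and D2 replicate 2 left out, and leaving out 1 array gave 0.00 to 0.22, while D3 against D1 was 0.02 with median centring. Sfrp1 at D2 was 0.04 with median centring and at D3 was -0.36 by the processed ratios of the series matrix, -0.03 with outlier spots kept and -0.09 without slide 3, and leaving out 1 array gave -0.19 to 0.31. Dkk2 at D2 was 0.04 without slide 1, and at D3 -0.04 by the processed ratios and -0.08 without slide 4, and leaving out 1 array gave -0.23 to 0.00 at D1, -0.16 to 0.08 at D2 and -0.04 to 0.21 at D3. Tcf7l2 at D1 was -0.03 with median centring and -0.06 by the mean of its probes, at D2 -0.11 without slide 1, -0.21 without slide 4 and -0.07 by the mean of its probes, and at D3 -0.03 by the processed ratios and -0.05 without slide 4. Leaving out 1 array gave Tcf7l2 -0.05 to 0.16, -0.16 to 0.18 and -0.07 to 0.14 at the 3 doses. The 6 genes near background have no change to vary. Signal over background limits what can be said of them, and of Axin2 most of all.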
